A study of Sus scrofa with 32 samples.

Results

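The cadherins CDH11 and PCDH17, the receptor KIT, the FERM-domain protein FRMD6 and the junction and centrosome protein SSX2IP are described here, 5 of the 25322 pig gene identifiers counted. Their identifiers are CDH11 (ENSSSCG00000002795), PCDH17 (ENSSSCG00000009446), KIT (ENSSSCG00000008842), FRMD6 (ENSSSCG00000005027) and SSX2IP (ENSSSCG00000003757). They were selected on the breed difference of the ham muscle, where their mean level was higher in Polish Landrace (PL) than in Pulawska (PUL) pigs, so that difference is given here only as a description. RNA was sequenced from the semimembranosus muscle (S) of the ham and from the longissimus dorsi muscle (LD) of the loin of 8 PUL and 8 PL gilts. They were housed and fed alike at one test station, unrelated within the study and drawn from different farms. The labels give an age of 180 days for every pig. The study, however, fed pigs to a set body weight, treated age at slaughter as a varying trait and reported lower daily gain in PUL. Age by pig was not available, so age and breed cannot be told apart. Each group of breed and muscle holds 8 libraries, 32 in all, and every pig gave one library of each muscle, so the muscles of a breed are the same animals. The labels put PUL in the high and PL in the low shear force class while the study's text describes PL meat as the less tender, and the groups are therefore named by breed only.

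Cadherins are membrane proteins that hold neighbouring cells together through calcium-dependent contacts, and protocadherins are their relatives with weaker adhesion and mostly signalling roles. CDH11 is the cadherin of mesenchymal cells and fibroblasts, whereas PCDH17 is best known from nerve cells. KIT is the receptor tyrosine kinase for stem cell factor, needed by mast cells, melanocytes and blood progenitors. FRMD6 sits under the plasma membrane and acts upstream of the Hippo kinases, and the study listed it under actin organisation rather than adhesion. SSX2IP binds afadin at adherens junctions and also works at the centrosome. A whole muscle sample mixes fibres with connective tissue, vessels and blood cells, and in such bulk samples fewer cells of a type and less RNA per cell cannot be told apart.

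Library totals ranged from 12142279 to 23620212 counts in PUL LD, from 12281645 to 22206234 in PL LD, from 13927385 to 24761853 in PUL S and from 8821273 to 23034195 in PL S. The fibre genes were abundant, with ACTA1, the skeletal muscle actin, averaging between 72600 and 100000 CPM in the 4 groups, where CPM is a count scaled to a fixed library total. PUL pigs 1 to 5 stood apart in both muscles, since the mean log2 level of 9 liver genes was 1.08 to 6.11 in their 10 libraries and -0.50 to 0.51 in the 22 other libraries. Fitted breed and muscle differences of the members that move by over 1.5 times without these 5 pigs are given both ways. No correlation over both breeds is given without these 5 pigs. Levels below are CPM with TMM (trimmed mean of M values) library factors, and gene lengths were not used, so they are compared within a gene and never between genes. SSX2IP and KIT rested on the fewest counts, 11 to 94 and 9 to 100 a library (1121 and 1310 over the 32 libraries), and so carry the largest counting error.

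CDH11 reached 3.30 CPM in the lowest PUL LD pig, 8.13 at the median and 13.4 in the highest, against 5.97, 12.3 and 23.2 CPM in PL LD. In S the corresponding PUL values were 3.68, 8.70 and 13.7 CPM, and the PL values were 10.7, 17.4 and 93.8 CPM. The ranges of the breeds overlapped in both muscles, yet 4 of 8 PL pigs in LD and 6 of 8 in S lay above every PUL pig. The value of 93.8 CPM belonged to pig 8, whose S library was the shallowest of the series, and the next PL pig in S reached 19.1 CPM. Group means were 8.15 ± 3.53 (PUL LD), 13.5 ± 6.0 (PL LD), 8.71 ± 3.54 (PUL S) and 25.4 ± 27.8 CPM (PL S; SD, n = 8 each). No neighbours in the order of means differed by more than the larger SD of the pair.

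PCDH17 ran from 1.19 CPM in the lowest PUL LD pig through a median of 3.10 to 5.20, and from 1.89 through 7.35 to 18.3 CPM in PL LD. In S the PUL pigs lay between 1.56 and 4.70 CPM with a median of 3.83, and the PL pigs between 4.66 and 16.4 CPM with a median of 8.06. Only the lowest PL pig overlapped the PUL range in S, while in LD 5 of 8 PL pigs lay above all PUL pigs and the spread within PL was wider. Pig 7 was the lowest PL pig in LD and the highest in S. Means were 3.0 ± 1.32, 7.82 ± 5.39, 3.68 ± 0.978 and 8.84 ± 3.85 CPM for PUL LD, PL LD, PUL S and PL S (SD, n = 8), and neighbours in the order of means differed by less than the larger SD.

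KIT had low counts throughout. In LD the PUL pigs spanned 0.658 to 2.62 CPM with a median of 1.05, and the PL pigs 2.11 to 4.44 CPM with a median of 3.44. The PUL loins fell into separate sets, with pigs 1, 2 and 4 at 2.46 to 2.62 CPM and the other 5 pigs at 0.658 to 1.07 CPM, whereas 7 of 8 PL loins exceeded every PUL loin. In S the values were 0.718 to 2.85 CPM in PUL with a median of 1.56, and 2.00 to 5.14 CPM in PL with a median of 2.99, so that 5 PL pigs exceeded all PUL pigs. By mean the order was PL LD (3.38 ± 0.813), PL S (3.24 ± 0.994), PUL S (1.71 ± 0.632) and PUL LD (1.52 ± 0.872 CPM; SD, n = 8). KIT was the one member whose breeds were separated in this order by more than the larger SD, with a gap of 1.52 CPM between PL S and PUL S.

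FRMD6 measured 3.15, 5.81 and 9.36 CPM in the lowest, median and highest PUL LD pig, and 4.31, 8.76 and 26.9 CPM in PL LD. The upper end of PL LD was made by pig 14 and pig 10, at 26.9 and 22.1 CPM, and 3 of 8 PL loins lay above the PUL range. In S the PUL pigs reached 3.36, 7.46 and 9.60 CPM and the PL pigs 4.75, 13.1 and 22.0 CPM, with 6 PL pigs above all PUL pigs. Pig 14 was highest in LD and lowest of the PL pigs in S. Means in the order PUL LD, PL LD, PUL S and PL S were 6.36 ± 2.39, 11.6 ± 8.25, 6.58 ± 2.4 and 13.6 ± 5.56 CPM (SD, n = 8), with no neighbours apart by more than the larger SD.

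SSX2IP had the smallest breed gap in the loin. Its LD values were 0.936, 1.77 and 3.44 CPM in the lowest, median and highest PUL pig and 1.09, 2.51 and 7.28 CPM in PL, and a single PL loin, from pig 12, exceeded the PUL range. In S they were 0.636, 1.20 and 2.12 CPM in PUL and 1.41, 2.27 and 5.91 CPM in PL, where 5 PL pigs exceeded all PUL pigs and pig 14 was highest. Means were 1.99 ± 1.02, 2.91 ± 1.91, 1.24 ± 0.432 and 2.72 ± 1.42 CPM in PUL LD, PL LD, PUL S and PL S (SD, n = 8), again with neighbours closer than the larger SD.

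**Figure D1:**
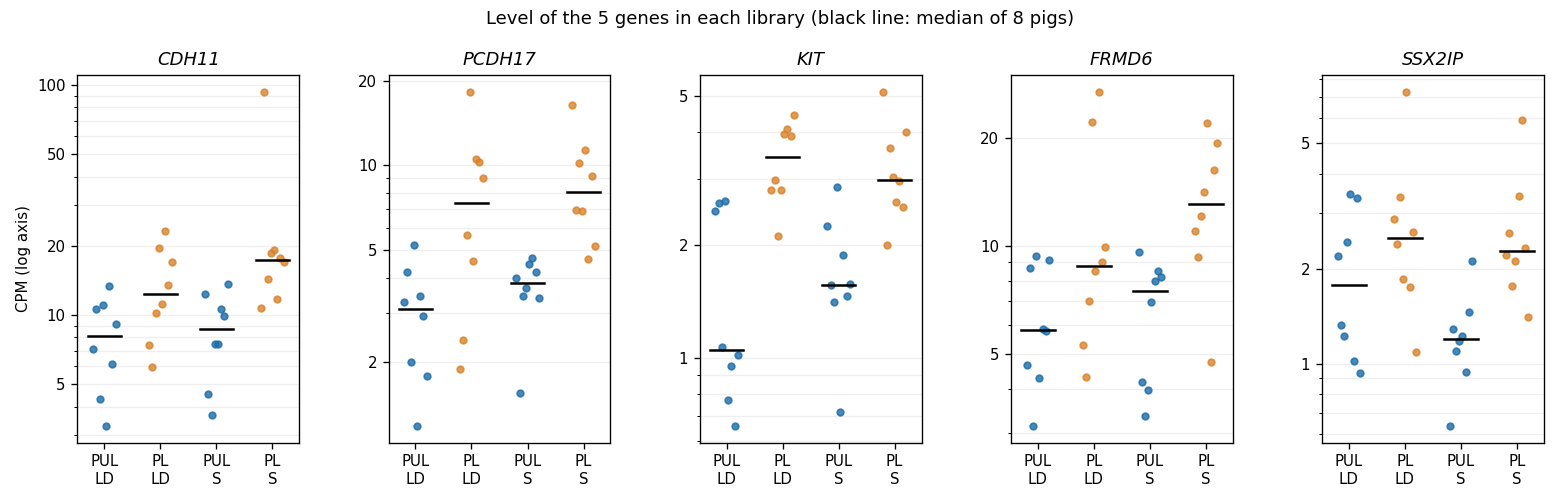
CPM of each gene (log axis) in every library, by breed and muscle, with a black line at the median of 8 pigs. PL medians lie above PUL medians in each panel and muscle, and the CDH11 point at 93.8 CPM is PL pig 8 in S.

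The first question was whether the breeds also differed in the loin, whose libraries played no part in the choice of the genes, although the pigs are the same. All 5 members had a higher fitted level in PL LD, by log2 fold changes from 0.53 to 1.38, but 0 of 5 passed the threshold of an adjusted p of 0.05 with a fold change of 1.3 (edgeR quasi-likelihood test, Benjamini-Hochberg adjustment over 10792 genes). No gene passed it in LD (0.0% of those tested), while DESeq2 and edgeR's exact test called 19 and 13 genes, none of them a member. At an unadjusted p under 0.05, 4 of the 5 were higher in PL, against 3.64% of all genes tested (393 genes). The same pigs gave the ham values, so this count is not independent of the choice of genes.

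PCDH17 showed the largest loin difference, with a log2 fold change of 1.38 (SE 0.42, unadjusted p = 0.00392, edgeR adjusted p = 0.513). KIT followed at 1.11 (SE 0.32, unadjusted p = 0.00236, edgeR adjusted p = 0.513). Without PUL pigs 1 to 5, among them the 3 with high KIT, it was 1.93 (SE 0.34, edgeR adjusted p = 0.178). FRMD6 was at 0.89 (SE 0.37, unadjusted p = 0.027, edgeR adjusted p = 0.615), and at 0.58 without PL pig 14. CDH11 was at 0.73 (SE 0.31, unadjusted p = 0.0305, edgeR adjusted p = 0.63), and at 0.49 without PUL pigs 1 to 5. SSX2IP was at 0.53 (SE 0.37, unadjusted p = 0.172, edgeR adjusted p = 0.836), with a 95% interval of -0.20 to 1.25 that spans both directions, at 0.20 without PL pig 12 and at 0.31 scaled by library size alone. Over all genes tested in LD the median was 0.01.

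In the ham, where the genes were picked, the fitted log2 fold changes of PL over PUL were 1.54 for CDH11 (SE 0.43), 1.28 for PCDH17 (SE 0.27), 0.93 for KIT (SE 0.26), 1.05 for FRMD6 (SE 0.29) and 1.12 for SSX2IP (SE 0.30), none of them tested. For orientation, 5.38% of 10687 genes were higher in PL S at an unadjusted p under 0.05. CDH11 fell to 0.85 without PL pig 8. The other 4 stayed between 0.80 and 1.37 whichever single library was left out. PCDH17 and KIT had fitted ham differences no larger than their loin differences, whereas those of CDH11, FRMD6 and SSX2IP were larger in the ham. The breed by muscle terms, untested since the choice of genes enters them, were 0.42 (SE 0.53) for CDH11, 0.00 (SE 0.69) for PCDH17, -0.33 (SE 0.33) for KIT, 0.39 (SE 0.50) for FRMD6 and 0.57 (SE 0.46) for SSX2IP, in log2 units.

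**Figure D2:**
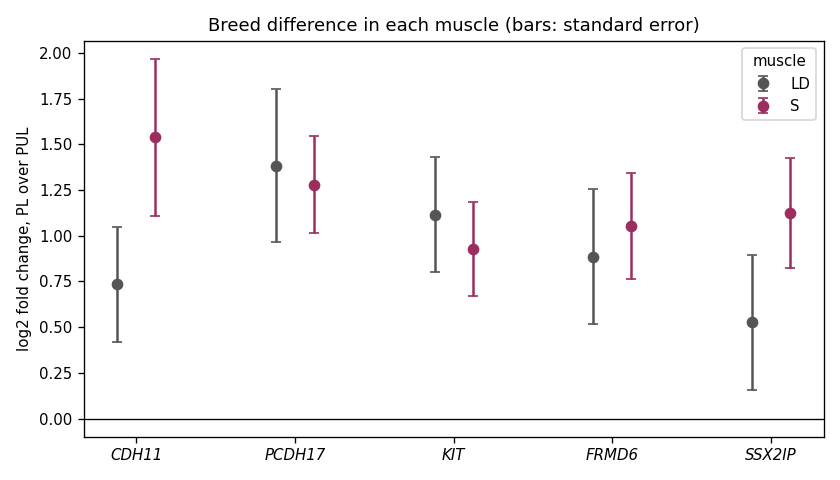
Fitted log2 fold change of PL over PUL in LD (grey) and S (purple) with its standard error, 8 pigs a breed. All 10 points lie above 0, from 0.53 for SSX2IP in LD to 1.54 for CDH11 in S, the latter being 0.85 without PL pig 8.

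The next question was whether the ham and the loin of a pig differed. None of the members passed the threshold for the difference of S over LD, averaged over the breeds with the pig as a block, whereas 0.0951% of 11563 genes did (11 genes, edgeR). At an unadjusted p under 0.05 the members numbered 0 of 5 and the genes tested 5.79%. CDH11 differed by 0.32 on the log2 scale (SE 0.26, 95% interval -0.20 to 0.84, edgeR adjusted p = 0.972) and was higher in S in 9 of 16 pigs. That value was 0.14 without PL pig 8. PCDH17 differed by 0.35 (SE 0.30, interval -0.25 to 0.94) and was higher in S in 10 of 16 pigs, and its value was 0.17 without PL pig 7. FRMD6 differed by 0.25 (SE 0.25, interval -0.24 to 0.75), with 11 of 16 pigs higher in S, and by 0.42 without PL pig 14.

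KIT differed least between the muscles, by 0.09 (SE 0.16, interval -0.24 to 0.41), with 8 of 16 pigs in each direction, but by 0.42 without PUL pigs 1 to 5 and 0.02 without PL pig 7. SSX2IP was the one member with a lower fitted level in S, at -0.33 (SE 0.23, interval -0.78 to 0.11), and at -0.08 without PUL pigs 1 to 5. Its S library was the higher one in 1 of 8 PUL pigs and in 4 of 8 PL pigs. The interval of PCDH17 was the widest of the set and reached 0.94, so equality of the muscles was not shown.

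**Figure D3:**
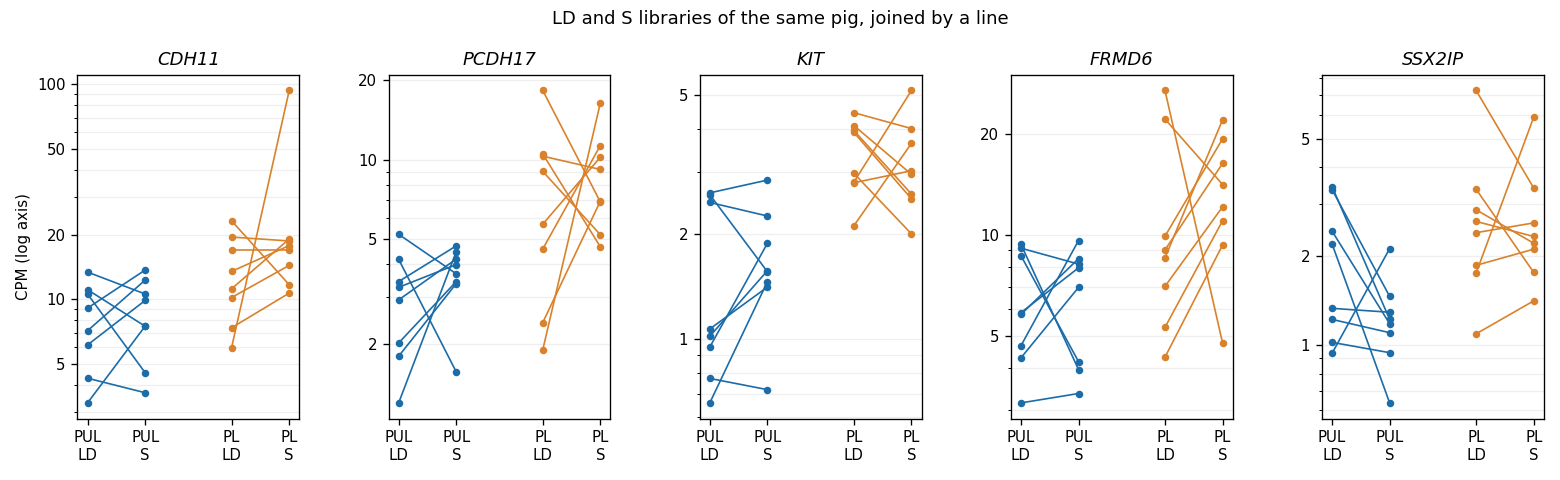
CPM (log axis) in the LD and S library of each pig, joined by a line, PUL in blue and PL in orange. Lines cross in both directions in every panel; S was the higher library in 9 (CDH11), 10 (PCDH17), 8 (KIT), 11 (FRMD6) and 5 (SSX2IP) of 16 pigs.

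Whether a pig high for a gene in one muscle was also high in the other was examined next. With the breed means removed, the LD and S levels of the 16 pigs correlated with a Pearson r of -0.19 for CDH11 (rho -0.02), -0.52 for PCDH17 (rho -0.51), -0.21 for FRMD6 (rho 0.01) and 0.08 for SSX2IP (rho 0.14). None passed a permutation test after adjustment over 5 relations, with unadjusted p for r from 0.0665 for PCDH17 to 0.788 for SSX2IP (adjusted p 0.333 and 0.788) and for rho from 0.0657 to 0.987. Leaving out the 2 pigs farthest from the LD median turned the r of CDH11 to 0.28, that of FRMD6 to 0.18 and that of SSX2IP to -0.32. The r of PCDH17 was then -0.47. For KIT, whose PUL loins fell into separate sets, r was 0.67 within PUL and -0.20 within PL, over 8 pigs each.

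CDH11, PCDH17 and FRMD6 moved together between pigs of the same breed in the loin. CDH11 and FRMD6 correlated with r = 0.84 and rho = 0.88 over 16 pigs (permutation p 7e-05 and 5e-05, adjusted p 0.0014 and 0.001 over 20 pairs), with r = 0.75 within PUL, 0.94 within PL and 0.84 without the 2 pigs farthest from the median. CDH11 and PCDH17 correlated with r = 0.82 and rho = 0.81 (permutation p 0.00014 and 0.00025, adjusted p 0.0014 and 0.0025), with 0.76 within PUL, 0.91 within PL and 0.75 without the 2 farthest pigs. PCDH17 and FRMD6 followed with r = 0.76 and rho = 0.76 (permutation p 0.00262 and 0.00199, adjusted p 0.0175 and 0.0133), with 0.52 within PUL, 0.85 within PL and 0.66 without the 2 farthest pigs. Over the 32 libraries of both muscles, with group means removed, the 95th percentile of r with 11562 other genes was 0.54 for CDH11, 0.59 for PCDH17 and 0.72 for FRMD6. Such a share is not given for LD alone, so the co-variation is not shown to be particular to these genes. The PL loins of pigs 14 and 10 were the 2 highest for all 3 genes, and those of pigs 7 and 8 the 2 lowest. In PUL, pig 4 was first or second for CDH11, PCDH17, KIT and FRMD6, and pig 5 was last or next to last for the same 4 genes while being first for SSX2IP.

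No LD pair of KIT or SSX2IP passed after adjustment with TMM factors. The PUL values of KIT in LD fell into separate sets, so its correlations are given by breed, over 8 pigs each. Within PL r was 0.47 with CDH11, 0.28 with PCDH17 and 0.32 with FRMD6. Within PUL r was 0.46, 0.71 and 0.41, values that the separate sets can carry. SSX2IP had negative r with the 3 co-varying genes in LD, at -0.47 with CDH11 (rho -0.50), -0.30 with PCDH17 (rho -0.24) and -0.30 with FRMD6 (rho -0.36), and none of these passed after adjustment (permutation p for r 0.0799, 0.305 and 0.298, adjusted p 0.32, 0.436 and 0.436). The library factors moved with the co-varying genes, since the log2 TMM factor correlated across the 16 loins with PCDH17 at r = 0.72 (rho 0.68, permutation p 0.00128 and 0.00457), with FRMD6 at 0.57 (rho 0.51, p 0.0203 and 0.0456) and with CDH11 at 0.56 (rho 0.47, p 0.0333 and 0.0797). KIT followed the factor as well, at r = 0.70 pooled over the breeds (rho 0.66, permutation p 0.00522 and 0.00975), or 0.81 within PUL and 0.48 within PL. The relations of PCDH17 (adjusted p 0.0128 for r and 0.0457 for rho) and KIT (0.0261 and 0.0487) passed adjustment over 10 relations, and for PCDH17, FRMD6 and CDH11 r without the 2 farthest pigs was 0.66, 0.49 and 0.47. For SSX2IP r was -0.15. Scaled by library size alone, the 3 pairs had r of 0.85 to 0.90, and the 3 pairs of KIT with CDH11, PCDH17 and FRMD6, pooled over the breeds, passed as well. The part of library composition in the co-variation was not tested.

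In the ham, 0 of 10 pairs passed the permutation test after adjustment (2 of the 10 rho values had an unadjusted p under 0.05), and r ran from -0.43 for FRMD6 and SSX2IP to 0.40 for PCDH17 and FRMD6. CDH11 and FRMD6 had r = 0.31 and rho = 0.53 (permutation p 0.272 and 0.0402, adjusted p 0.436 and 0.169), with 0.89 within PUL and 0.00 within PL, the breed that holds the CDH11 value of pig 8. Without the 2 farthest pigs r was 0.65. CDH11 and PCDH17 had r = 0.03, or 0.21 without the 2 farthest pigs. Whether the loin and ham correlations differ was not tested.

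**Figure D4:**
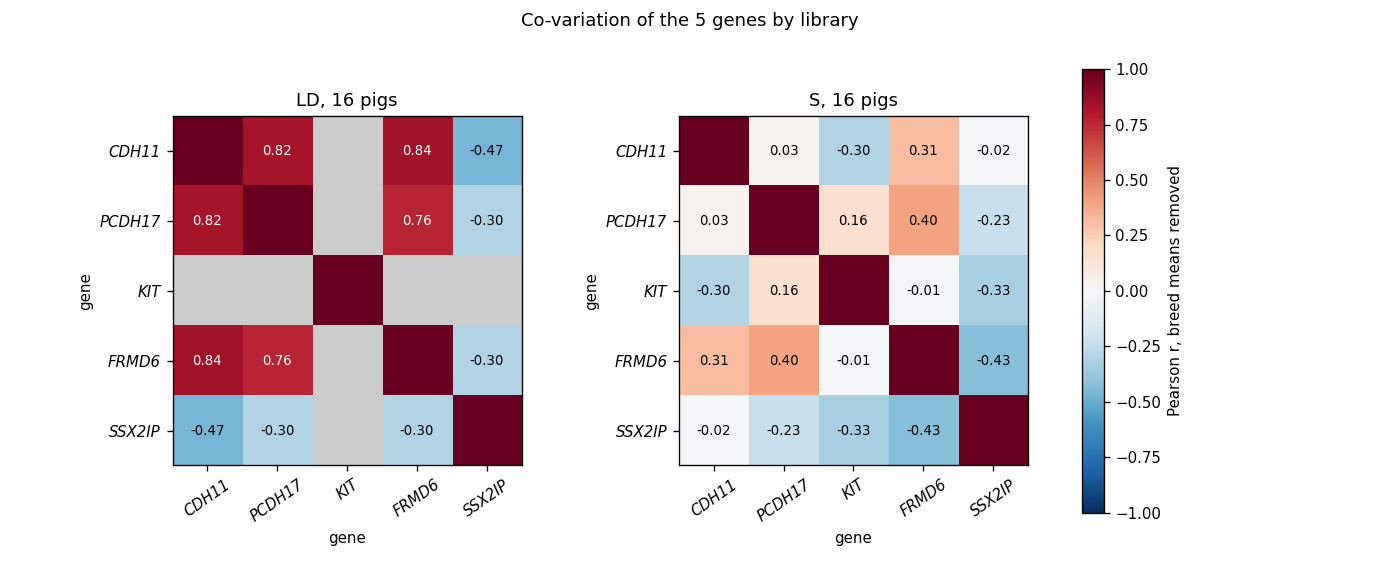
Pearson r between the 5 genes over 16 pigs, with breed means removed from log2(CPM + 0.5), in LD (left) and S (right). In LD the CDH11, PCDH17 and FRMD6 cells hold 0.76 to 0.84, while in S no pair exceeds 0.40, and KIT in LD is left grey because its PUL values fell into separate sets.

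Markers of other cell types were set beside the members. How many other genes move with these marker levels is not given here. Of 13 fibroblast genes listed, 9 had an identifier and 8 passed the filter on low counts, while PDGFRA was too low to test and at 0 in 4 libraries. The fitted level of all 8 was higher in PL in both muscles (medians of 0.79 for LD and 0.81 for S on the log2 scale, 3 at an unadjusted p under 0.05 in each and 0 after adjustment, edgeR). Of all genes tested, 0 of 10792 in LD and 0 of 10687 in S passed the threshold, so a count of 0 holds for any list. The summed level of the 8 fibroblast genes ran from 291 to 2520 CPM in PUL LD, 589 to 5710 in PL LD, 133 to 2310 in PUL S and 1220 to 5580 in PL S. FRMD6 moved with the fibroblast level in both muscles, with r = 0.88 and rho = 0.92 in LD and r = 0.81 and rho = 0.79 in S (permutation p 5e-05, 2e-05, 0.00019 and 0.00068, adjusted p 0.00225, 0.00135, 0.00396 and 0.0112 over 90 relations). CDH11 did so in LD, with r = 0.82 and rho = 0.91 (permutation p 0.00022 and 3e-05, adjusted p 0.00396 and 0.00135). In S, CDH11 had r = 0.23 and rho = 0.55 (permutation p 0.382 and 0.0322, adjusted p 0.605 and 0.129), with r = 0.84 within PUL and -0.29 within PL. PCDH17 passed in LD by rho but not by r, at r = 0.58 and rho = 0.72 (permutation p 0.0236 and 0.00388, adjusted p 0.117 and 0.0388), with r = 0.82 without the 2 farthest pigs. In S, PCDH17 passed by neither, at r = 0.61 and rho = 0.63 (permutation p 0.0122 and 0.0109, adjusted p 0.0735 and 0.0575), with r = 0.26 without the 2 farthest pigs. The LD relations of FRMD6 and CDH11 and that of FRMD6 in S held without the 2 farthest pigs, at r of 0.82 to 0.87. Pig 8, with the highest CDH11 in S, was seventh of the 8 PL hams in fibroblast level.

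The macrophage level, from 5 of 7 listed genes, moved with CDH11 in LD (r = 0.81, rho = 0.85, permutation p 0.00018 and 0.00016, adjusted p 0.00396 and 0.0036). With FRMD6 it gave r = 0.86 and rho = 0.84 in LD (permutation p 4e-05 and 0.00014, adjusted p 0.00225 and 0.0036) and r = 0.71 and rho = 0.70 in S (permutation p 0.003 and 0.00515, adjusted p 0.0245 and 0.0463). Without the 2 farthest pigs these r were 0.85, 0.78 and 0.59. Its summed CPM was 8.08 to 57.1 in PUL LD, 15.3 to 131 in PL LD, 7.98 to 44.7 in PUL S and 21.8 to 81.2 in PL S, and CD68 was at 0 in 1 library. The proliferation level, from 4 of 8 listed genes, moved with CDH11 in LD (r = 0.81, rho = 0.79, permutation p 0.00053 and 0.00087, adjusted p 0.00681 and 0.0112). With FRMD6 it gave r = 0.75 and rho = 0.78 in LD (permutation p 0.00101 and 0.00085, adjusted p 0.0114 and 0.0112) and r = 0.81 and rho = 0.77 in S (permutation p 0.00038 and 0.001, adjusted p 0.0057 and 0.0112). With PCDH17 it passed by r but not by rho, at r = 0.69 and rho = 0.67 in LD (adjusted p 0.0292 and 0.0544) and r = 0.66 and rho = 0.58 in S (adjusted p 0.0223 and 0.0954, permutation tests), and the S value was 0.33 without the 2 farthest pigs. The 4 proliferation genes had a median log2 breed difference of 1.07 in LD, 2 of them higher in PL at an unadjusted p under 0.05, and of 1.18 in S, with 3 higher (0 after adjustment, edgeR). TOP2A, a topoisomerase of dividing cells, was at 1.18 (SE 0.51) in LD and 1.24 (SE 0.35) in S. The fitted level was higher in PL S for 3 of the 4, and AURKB was at 0.28 (SE 0.38) in LD and -0.07 (SE 0.23) in S. Summed proliferation CPM was 0.913 to 9.70 in PUL LD, 3.46 to 15.5 in PL LD, 1.56 to 6.99 in PUL S and 4.30 to 10.9 in PL S, and BUB1 was at 0 in 21 libraries. The fibroblast, macrophage and proliferation levels shared their highest loins, pigs 14 and 10 ranking 1 and 2 in PL and pig 17 ranking 1 in PUL. Correlations among these levels are not given, so their relations with the members are not shown to be separate.

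PCDH17 also moved with the endothelial level of 8 genes in LD (r = 0.63, rho = 0.64, permutation p 0.0012 and 0.00574, adjusted p 0.012 and 0.047), although r was 0.40 without the 2 farthest pigs. That level differed little by breed, by 0.12 in LD and 0.02 in S on the log2 scale, and its summed CPM was 96.5 to 227 in PUL LD, 149 to 210 in PL LD, 162 to 273 in PUL S and 161 to 336 in PL S. KIT and SSX2IP passed with none of the 9 levels examined. The tendon level of 3 genes was higher in PL by 0.58 in LD and 0.80 in S on the log2 scale. No member passed with the tendon, smooth muscle and pericyte, satellite cell, adipocyte or liver levels. The part of fibroblasts, macrophages, dividing cells and vessels in the breed difference of the members was not tested.

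Mast cells carry KIT, and of their 9 listed markers 5 had an identifier. HDC, the histamine-forming enzyme, was at 0 in 22 of 32 libraries and never above 3 counts, SLC18A2 was at 0 in 24 and HPGDS at 0 in 22. FCER1A, a chain of the IgE receptor, was at 0 in 2 libraries and reached 26 counts, averaging 0.234 ± 0.203 CPM in PUL LD, 0.333 ± 0.341 in PL LD, 0.477 ± 0.409 in PUL S and 0.642 ± 0.452 in PL S, too low for the breed tests. GATA2, which vessel cells also express, was the 1 mast cell gene tested in the breed comparisons, with PL over PUL at 0.37 (LD) and 0.25 (S) on the log2 scale. CPA3, MS4A2, TPSAB1 and CMA1 were not analysed here.

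**Figure D5:**
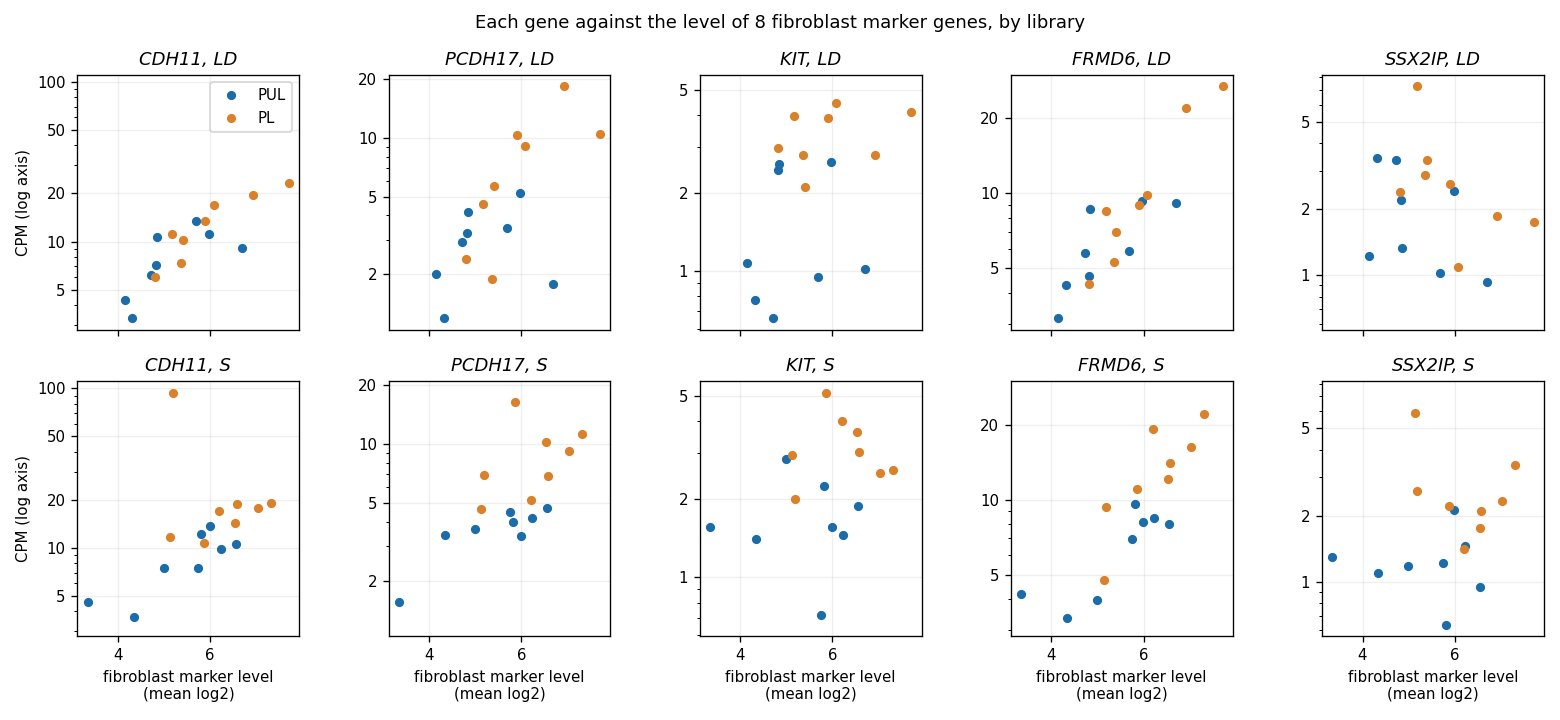
CPM of each gene (log axis) against the mean log2 level of 8 fibroblast markers, one point a library, PUL blue and PL orange, LD above and S below. FRMD6 climbs with the marker level in both muscles (within-breed r 0.88 and 0.81) and CDH11 in LD (0.82), whereas KIT and SSX2IP show no relation that passed.

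The partners of the members were examined as lists, by the counts and medians of their per-gene fits, and no gene of any list passed after adjustment in either muscle. The threshold was passed by 0 of all 10792 genes tested in LD and 0 of 10687 in S (edgeR), so this is no result about the lists. At an unadjusted p under 0.05, 393 of all genes tested were higher and 379 lower in PL LD, and 575 higher and 677 lower in PL S. Of 18 other cadherin genes listed, 3 were tested in LD, with a median log2 fold change of -0.15 and 0 of 3 at an unadjusted p under 0.05. CDH13, a cadherin of vessels and muscle anchored in the membrane by a lipid, averaged 36.7 ± 10.9 CPM in PUL LD and 44.7 ± 7.32 in PL LD (log2 fold change 0.28, SE 0.18). In S it averaged 34.8 ± 5.48 and 49.0 ± 11.1 CPM (0.50, SE 0.15, unadjusted p = 0.00295, edgeR adjusted p = 0.219). CDH15, the cadherin of satellite cells, had values of -0.48 (SE 0.38) in LD and -0.38 (SE 0.29) in S, opposite in sign to CDH11. CDH24 was at -0.15 (SE 0.33) in LD, and CDH2 averaged 0.0536 to 0.147 CPM, too low to test. CDH5 was not analysed here. Of 8 delta protocadherins, the family of PCDH17, PCDH1 alone passed the filter of the breed tests, at -0.19 (SE 0.29) in LD and -0.29 (SE 0.36) in S. PCDH7, tested between the muscles only (0.31, SE 0.30), averaged 0.294 ± 0.237 CPM in PUL LD and 0.84 ± 0.304 in PL LD, and 0.456 ± 0.269 in PUL S and 0.877 ± 0.558 in PL S.

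Catenins tie cadherins to actin, and afadin (AFDN) is the binding partner of SSX2IP. Of 16 genes of this group 10 were tested in LD, with a median log2 fold change of -0.06, 0 higher and 1 lower at an unadjusted p under 0.05 (379 of all 10792 genes were lower). The 1 was AFDN, at 23.1 ± 5.84 CPM in PUL LD and 17.5 ± 4.71 in PL LD (log2 fold change -0.40, SE 0.19, unadjusted p = 0.0497, edgeR adjusted p = 0.697). Its sign was opposite to that of SSX2IP, whose LD interval of -0.20 to 1.25 spans both directions. The catenins themselves lay near 0 in LD, with CTNNB1 at -0.04 (SE 0.13), CTNNA1 at -0.07 (SE 0.11) and CTNND1 at 0.09 (SE 0.16). VCL, the actin linker vinculin, was at -0.14 (SE 0.17) and ARVCF, a catenin of the p120 family, at -0.12 (SE 0.17). In S, 10 were tested with 0 in either direction and a median of 0.17.

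Downstream of KIT, 13 of 17 signalling genes were tested, with medians of 0.05 in LD and 0.20 in S and with 0 and 2 genes higher at an unadjusted p under 0.05. The 2 were SOS1 (0.80, SE 0.37) and GAB2 (1.34, SE 0.59), named, like AKAP9, MOB1B, WWTR1 and TEAD3 in S, after their values were seen. The 3 most abundant, PIK3R1, PTPN11 and STAT5B, which encode a phosphoinositide kinase subunit, a phosphatase and a transcription factor, had loin values of -0.63 (SE 0.33), 0.08 (SE 0.26) and -0.38 (SE 0.31). KITLG, the ligand, was not analysed here. The related receptors PDGFRB and CSF1R, both of 4 in the KIT class that could be tested, were at 0.67 (SE 0.43) and 0.72 (SE 0.41) in LD, and at 0.88 (SE 0.45) and 0.17 (SE 0.42) in S.

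In the Hippo pathway, where FRMD6 acts, 18 of 27 genes were tested, with medians of 0.10 in LD and 0.07 in S. In S, 2 were higher and 1 lower at an unadjusted p under 0.05, the coactivator WWTR1 (0.67, SE 0.27), MOB1B (0.80, SE 0.33) and TEAD3 (-0.52, SE 0.23). LATS1, one of its kinases, was the 1 gene at an unadjusted p under 0.05 in LD, at 1.03 ± 0.305 CPM in PUL and 1.75 ± 0.484 in PL (log2 fold change 0.75, SE 0.23, unadjusted p = 0.00513, edgeR adjusted p = 0.513), and its S value was 0.29 (SE 0.19). The scaffold SAV1 was at -0.12 (SE 0.17) in LD and the most abundant member, the angiomotin AMOT, at -0.26 (SE 0.22). CCN2, a target gene of the pathway, was at 0.82 (SE 0.54) in LD and -0.24 (SE 0.45) in S. YAP1 and WWC1 were not analysed here. Of 17 centrosome genes 10 were tested, with medians of -0.08 in LD and 0.08 in S and with 0 genes in LD and 1 in each direction in S at an unadjusted p under 0.05, AKAP9 (0.66, SE 0.28) and TUBGCP2 (-0.46, SE 0.21). In LD, TUBGCP2, PCM1 and WRAP73 had loin values of -0.28 (SE 0.20), -0.09 (SE 0.21) and -0.13 (SE 0.19).

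The genes most like each member were ranked by Pearson r over 32 libraries with the group means removed, as a description in which points share their library factors. For CDH11 they were FUCA2 (0.91), GIMAP6 (0.89) and ZBTB8A (0.86), and for PCDH17 CAV1 (0.86), GUCY1B1 (0.86) and RALB (0.85). FRMD6 was followed by ASPH (0.93), PTPN13 (0.92) and FAM171B (0.92). SSX2IP was nearest to CDC25A (0.86), CAMK2G (0.85) and EPB41 (0.85), and KIT, with looser neighbours, to CXCL2 (0.68), PLK3 (0.67) and ADAMTS4 (0.65). The 95th percentile of r over the 11562 other genes was 0.54 for CDH11, 0.59 for PCDH17, 0.36 for KIT, 0.72 for FRMD6 and 0.70 for SSX2IP. The r of CDH11 include the 93.8 CPM of PL pig 8 in S, and its ranking without that library is not given.

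At the level of transcripts, counts could fall only on annotated forms (30585 isoform identifiers beside 25322 gene identifiers). One form for a member may therefore reflect the annotation and is no result about transcript use. For PCDH17, KIT, FRMD6 and SSX2IP a single row of the isoform table equalled the gene's counts in all 32 libraries, and the closest row for CDH11 was within 1 count in 26 libraries, with a largest difference of 47.44 counts in the LD library of PL pig 10. Rows were matched by these counts and not by an annotation. The isoform log2 fold changes in LD were 0.70 for CDH11, 1.39 for PCDH17, 1.12 for KIT, 0.89 for FRMD6 and 0.53 for SSX2IP, with 4 of the 5 at an unadjusted p under 0.05 against 3.34% of all isoforms tested (385, higher in PL). For PCDH17, KIT, FRMD6 and SSX2IP the isoform fit used the gene's own counts again, so it is not a further result. None of 11534 isoforms passed the threshold by edgeR (adjusted p from 0.595 for KIT to 0.884 for SSX2IP), and 20 did by DESeq2, none of them a member's.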

How the data were processed

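RNA was sequenced from 32 muscle libraries (Ribo-Zero and TruSeq v2, single reads). The authors trimmed reads with Flexbar, aligned them to Sscrofa10.2 with Bowtie 2 and deposited RSEM expected counts per gene and isoform, which were rounded here. The kit does not mark strand, so antisense or overlapping genes share reads. Symbols were paired with 11804 of 25322 gene identifiers. edgeR 4.0.16 (R 4.3.3) fitted TMM-scaled counts after filterByExpr with the quasi-likelihood test and Benjamini-Hochberg adjustment over all genes, for breed within LD, for breed within S and for muscle with the pig as a block. S and LD libraries were paired by the animal number in the labels. Deviations correlated above 0.1 in 11 of 16 same-pig pairs (median r 0.20). Different pigs sharing a title number did so in 6 of 8 LD pairs (median r 0.30) and 2 of 8 S pairs. This measure therefore cannot establish the pairing, which rests on the labels. Scripts were tested on simulated data. Correlations used log2(CPM + 0.5) with breed means removed and 100000 permutations within breed (Python 3.11.15, numpy 2.4.6), two-sided. Libraries of a group differed by more than sampling noise (lowest chi-square per degree of freedom 35.5 over 112 pairs), and intervals are 1.96 SE. DESeq2 1.42.0, other scalings, filters and left-out pigs were alternatives. The members, lists and tests were chosen with earlier results of these data known. All members were named, and from each list the genes with an unadjusted p under 0.05 in LD (4 at most), the 3 most abundant and direct partners. Genome coordinates and sequences are not used here.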

Additional observations from a re-analysis of the deposited data

Results flagged for a closer look

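In each of the 20 gene and group sets of 8 pigs, the gap of the highest or lowest pig to its neighbour was set against the group's range (Dixon's criterion at 95%). For normally distributed values, chance flags about 1 in 20 groups. The gaps were taken on CPM and not on log2 values, so the number of flags is not read against that share. The criterion was passed by 4 of the 20. CDH11 in PL S was 93.8 CPM in pig 8, against 19.1 CPM in the next pig. PCDH17 in PUL S was 1.56 CPM in pig 2, the lowest of its group, against 3.38 CPM in the next. SSX2IP in PL LD was 7.28 CPM in pig 12, against 3.37 CPM in the next pig. SSX2IP in PL S was 5.91 CPM in pig 14, against 3.4 CPM in the next. No pig was far from its group for more than 1 gene, and no cause was tested.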

How the results depend on the processing

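No member passed the threshold in LD, between the muscles or as an isoform under any alternative run, and no member's direction reversed. KIT could not be tested with at least 10 counts in every library. The LD adjusted p ranged from 0.411 to 0.992 for CDH11, 0.131 to 0.962 for PCDH17, 0.106 to 0.8 for KIT, 0.399 to 0.998 for FRMD6 and 0.58 to 0.998 for SSX2IP. Over all genes in LD the count past the threshold was 0, and it was 4 with no filter, 19 by DESeq2, 13 by the exact test, 6 with both muscles in one fit, 1 with PUL pigs 1 to 5 left out (an alternative chosen after seeing the data) and 0 to 1 with single pigs left out. For the muscles it was 11, and 0 with at least 10 counts in every library, 65 by DESeq2, 0 with those 5 pigs left out and 4 to 78 with single pigs left out, the 78 without PL pig 14. For isoforms it was 0, and 20 by DESeq2 and 1 with no filter. Co-varying pairs numbered 3, and 6 by library size alone. The cause of these shifts was not tested. The title number shared by a PUL and a PL pig marks no shared animal. Still, deviations of LD libraries with one title number correlated above 0.1 in 6 of 8 pairs (median r 0.30), against 2 of 8 in S (median r -0.06). LD totals were 23620212 (PUL) and 22206234 (PL) at title number 1, and 12142279 and 13689133 at title number 8. Loin correlations removed breed means only, and the part of the title number in them was not tested. The fit with this replicate block changed no call (LD log2 fold change of KIT 1.25, of FRMD6 0.69). Without the pig block 16 genes passed between the muscles. By DESeq2, CDH11 in S was 0.80. In LD, SSX2IP was 0.31 and KIT 0.85 by library size alone. Counts of 9 to 100 limit KIT and of 11 to 94 SSX2IP.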
